A study of Mus musculus with 3 samples.

Results

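The HoxA cluster is one of the mouse Hox gene clusters and lies on chromosome 6. Its genes Hoxa2, Hoxa3, Hoxa4, Hoxa5, Hoxa6, Hoxa7, Hoxa9, Hoxa10, Hoxa11 and Hoxa13 were followed here from the esophagus to the intestine. Every probe on the arrays whose transcript accession belonged to 1 of these 10 genes was taken, which gave 13 probes. Hoxa3, Hoxa4 and Hoxa13 had 2 probes each and the other 7 genes had 1. The 10 genes stand among 16998 genes named on the arrays. The 3 organs were primordia taken at E11.5 from embryos of ICR, an outbred mouse stock, and the labels name no treatment and no engineered allele. RNA of each organ was labelled with Cy3 and hybridised to 1 Agilent 1-colour array. How many embryos stand behind a sample, and whether they were pooled, is not given. The organ was read from title and tissue, since the protocol wording names the stomach throughout.

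Hox genes encode homeodomain transcription factors that assign position along the body axis. Their order on the chromosome matches the order in which they are switched on and the place where they are expressed. Genes at the Hoxa2 end act early and reach far toward the head, and genes at the Hoxa13 end act late and toward the tail. In the gut the proteins are best known from the mesenchyme, where they help to set regional boundaries and sphincters. Hox proteins bind DNA together with cofactors of the Pbx and Meis families. Caudal-type Cdx factors and retinoic acid act upstream of many Hox genes.

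**Figure D1:**
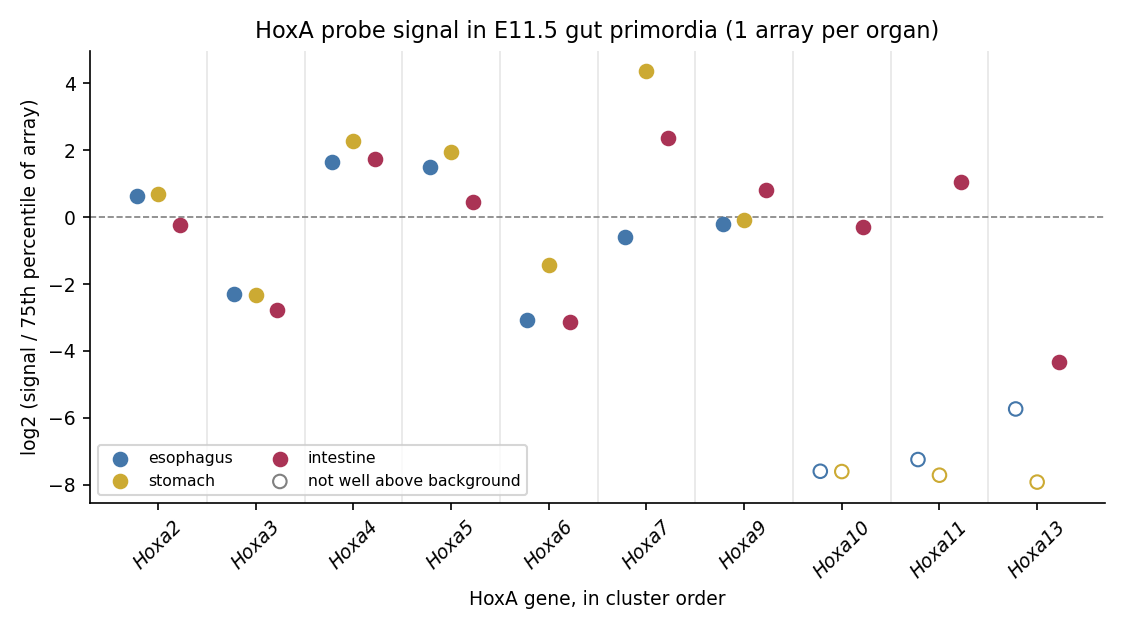
Signal of the probe used for each HoxA gene, as log2 of the signal over the array's 75th percentile, with genes in cluster order. Each point is 1 array and open points were not well above background. Levels of different genes are not comparable, because each probe has its own response. Hoxa7 stood at −0.61 in esophagus and 4.36 in stomach, and Hoxa10, Hoxa11 and Hoxa13 were well above background in intestine only.

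With 1 array per organ no difference has a replicate check and no test was run. Precision is limited by this number. Levels are given as log2 of the processed signal over the array's own 75th percentile, and differences are differences of these levels. A probe is called dim where the scanner software did not mark it as well above background. Where 1 of a pair of organs was dim, the difference is a bound. It was taken against the higher of the dim probe's own level and the lowest level well above background on that array. The signal at the 75th percentile was 393 on the esophagus array, 334 on the stomach array and 1023 on the intestine array, and between 67.9% and 74.0% of spots were well above background. The spike-in controls lay above it by 3.79 (esophagus), 3.86 (stomach) and 2.86 (intestine) log2 units. Scaling on the spike-ins therefore raised the intestine against the other organs, and moved the median difference of all genes from −0.02 to 0.95 for intestine minus stomach and from 0.13 to 1.03 for intestine minus esophagus. Scaling on the median moved these medians to 0.26 and 0.61, and that of stomach minus esophagus from 0.15 to 0.35. Repeat spots of 1 probe had a median SD between 0.073 and 0.090 log2 units. Different probes of 1 gene had a median SD of the difference of 0.25 for stomach minus esophagus, 0.46 for intestine minus esophagus and 0.31 for intestine minus stomach. These medians are called the spread between probes. They were taken over all genes with more than 1 probe and do not measure variation between embryos.

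The organ labels were set against marker genes. The summed signal of Sox2, Trp63, Pax9 and Tbx1, genes of the anterior foregut, was 16.0 times the 75th percentile for esophagus, 2.30 for stomach and 0.54 for intestine. That of the stomach genes Barx1, Six2, Isl1, Nkx6-2 and Tlx1 was 3.27, 31.7 and 0.92, and that of the intestinal genes Cdx2, Isx, Vil1, Fabp1 and Fabp2 was 0.18, 0.33 and 9.99. Each set was highest in the organ it stands for, also after spike-in scaling. Tbx1 alone made up 12.2 of the 16.0 in esophagus, and Barx1 21.6 of the 31.7 in stomach. For stomach minus esophagus, Sox2 differed by −0.47, Trp63 by −2.46, Pax9 by −2.94 and Tbx1 by −4.54. Trp63 and Pax9 were dim in intestine, and Cdx2 and Isx were dim in esophagus. Markers of other tissues moved too. The summed signal of 4 lung and trachea genes was 9.30, 0.55 and 0.054 in the same order, that of 4 heart genes 80.4, 3.35 and 0.73, and that of 4 liver genes 9.18, 3.03 and 56.4. The part of these tissues in the HoxA values was not tested. In bulk tissue, fewer cells of a type and less RNA per cell cannot be told apart.

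Upstream sequence is shown for Hoxa2, whose differences lay within 2-fold, and for Hoxa7, the gene with the largest measured step into the stomach. It is also shown for Hoxa9 and Hoxa11, genes toward the Hoxa13 end with their highest level in intestine. The sequences are the 250 bases before the RefSeq transcript start in GRCm38.p6, and each gene lies on the minus strand. The windows are chr6:52164832-52165081 for Hoxa2, chr6:52218574-52218823 for Hoxa7, chr6:52227371-52227620 for Hoxa9 and chr6:52245811-52246060 for Hoxa11. The Hoxa9 window overlaps the long noncoding RNA gene Gm52902 and the Hoxa11 window overlaps Hoxa11os. The Hoxa2 and Hoxa7 windows overlap no other RefSeq gene. Capitals mark matches on either strand to TTTATNG or TTTATG (Cdx type), TGATNNAT (Hox-Pbx type) or TGACAG (Meis type).
Hoxa2: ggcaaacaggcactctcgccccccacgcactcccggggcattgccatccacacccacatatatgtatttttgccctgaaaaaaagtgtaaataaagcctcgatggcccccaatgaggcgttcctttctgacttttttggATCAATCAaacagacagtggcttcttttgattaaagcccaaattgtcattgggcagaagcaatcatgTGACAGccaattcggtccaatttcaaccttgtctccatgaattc
Hoxa7: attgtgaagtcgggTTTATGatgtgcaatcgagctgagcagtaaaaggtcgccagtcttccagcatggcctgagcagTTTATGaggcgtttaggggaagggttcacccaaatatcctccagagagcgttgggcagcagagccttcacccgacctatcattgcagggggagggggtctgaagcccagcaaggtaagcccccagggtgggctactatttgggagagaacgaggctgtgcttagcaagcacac
Hoxa9: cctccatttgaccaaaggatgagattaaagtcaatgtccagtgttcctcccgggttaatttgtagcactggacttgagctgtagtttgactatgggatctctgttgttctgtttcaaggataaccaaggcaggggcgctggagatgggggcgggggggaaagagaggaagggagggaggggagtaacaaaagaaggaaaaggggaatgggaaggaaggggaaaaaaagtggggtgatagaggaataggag
Hoxa11: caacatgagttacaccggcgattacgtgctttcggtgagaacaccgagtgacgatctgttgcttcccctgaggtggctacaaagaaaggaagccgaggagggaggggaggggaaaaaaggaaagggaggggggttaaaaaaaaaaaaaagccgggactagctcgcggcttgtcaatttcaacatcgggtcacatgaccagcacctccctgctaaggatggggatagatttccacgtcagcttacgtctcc

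The Hoxa7 window held 2 matches to TTTATG, the core letters bound by Caudal-type factors, starting 236 and 173 bases before the transcript start. This motif was added after the Hoxa7 letters had been read. It occurs in 10.8% of 32851 windows of the same length, and in none of the other windows of HoxA genes. TTTATNG, in 9.81% of windows, had no match in any HoxA window. The Hoxa2 window held 1 match to TGATNNAT (7.68% of windows) and 1 to TGACAG (15.9%), and the Hoxa3 window, not shown, held 1 match to the Meis type. The letters TTTATNG and TTTATG share their first letters and can overlap, but no match was counted under both here. The windows of Hoxa5, Hoxa6, Hoxa9, Hoxa10, Hoxa11 and Hoxa13 held no match to any of these letters. Windows were at hand for 9 of the 10 genes, with 2 for Hoxa10 and none for Hoxa4. GC content ranged from 46.4% in the Hoxa2 window to 80.0% in that of Hoxa13, against a median of 52.4% over all windows.

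The genes at the Hoxa2 end were well above background in all 3 organs, and most of their differences lay within 2-fold. Between stomach and esophagus, Hoxa2, Hoxa3, Hoxa4 and Hoxa5 all lay within 2-fold, with a median difference of 0.26. So did 12384 of 13740 genes on the arrays. Between intestine and esophagus 3 of the 4 lay within 2-fold, and between intestine and stomach also 3 of 4. The exception each time was Hoxa5. On the arrays 11024 of 14462 and 12101 of 14384 genes lay within 2-fold in these comparisons, so the counts do not set the 4 genes apart. After spike-in scaling Hoxa5 lay within 2-fold in both intestinal comparisons, and Hoxa4 reached 1.003 for intestine minus esophagus.

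Hoxa2, which patterns the hindbrain and the hyoid arch, gave a signal of 605 from esophagus, 537 from stomach and 877 from intestine. Its level was 0.62, 0.68 and −0.22. The difference was 0.06 for stomach minus esophagus and −0.91 for intestine minus stomach, and the second became 0.09 after spike-in scaling. The difference between esophagus and stomach was smaller than the spread between probes, which comes from other genes because Hoxa2 has 1 probe.

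Hoxa3, needed for the thymus and parathyroid glands, gave 79.5 in esophagus, 66.6 in stomach and 150.3 in intestine by the probe used. These signals stood at −2.31, −2.33 and −2.77. The difference for stomach minus esophagus was −0.02 and that for intestine minus stomach −0.44, which turned to 0.56 after spike-in scaling. The other probe gave −0.39 and −0.31. No pair of organs was separated in a direction that held under every scaling.

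Hoxa4 gave 1232 in esophagus, 1607 in stomach and 3377 in intestine, or levels of 1.65, 2.27 and 1.72. Stomach stood above esophagus by 0.62, and by 0.76 with the other probe. Intestine minus stomach was −0.54, or −0.48 with the other probe, and turned to 0.45 after spike-in scaling. In the reported scaling both probes gave the same order of organs.

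Hoxa5, which is required in the mesenchyme of the trachea, lung and stomach, gave 1101 in esophagus, 1287 in stomach and 1412 in intestine. Its level was 1.49, 1.95 and 0.46. The difference was 0.46 for stomach minus esophagus, −1.02 for intestine minus esophagus and −1.48 for intestine minus stomach. The intestine was lowest under all 4 scalings, by 0.48 to 1.48 against stomach and by 0.09 to 1.08 against esophagus. In esophagus the level of Hoxa5 stood beside a summed lung and trachea marker signal of 9.30 times the 75th percentile. The part of lung mesenchyme in it was not tested.

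Hoxa6 and Hoxa7, in the middle of the cluster, were highest in stomach. The stomach level, taken over the 75th percentile, exceeded that of esophagus 31.2-fold for Hoxa7 and 3.11-fold for Hoxa6. Both stood lower in intestine than in stomach. Both belong to the central Hox groups, which in the trunk pattern the thoracic region.

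Hoxa7 gave signals of 258 (esophagus), 6849 (stomach) and 5309 (intestine), with software errors of 25.9, 685 and 531. Its level was −0.61, 4.36 and 2.38, so that the esophagus lay far below the other organs. The difference was 4.96 log2 units for stomach minus esophagus, which ranked 2 among 12923 genes measured on both arrays when ordered from the highest. Against esophagus the level in intestine was 7.89-fold higher (2.98 log2 units), which ranked 67 among 13100 genes. Intestine minus stomach was −1.98, just inside a 4-fold difference, and ranged from −1.98 to −0.98 over the 4 scalings.

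Hoxa6 gave 47.0 in esophagus, 124 in stomach and 117 in intestine. These stood at −3.07, −1.43 and −3.13. The stomach was above esophagus by 1.64 log2 units and by 0.94 after normexp background correction. It was above intestine by 1.70, with a range of 0.70 to 1.70 over the 4 scalings. Intestine minus esophagus was −0.06, within the spread between probes, and 0.87 after spike-in scaling.

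**Figure D2:**
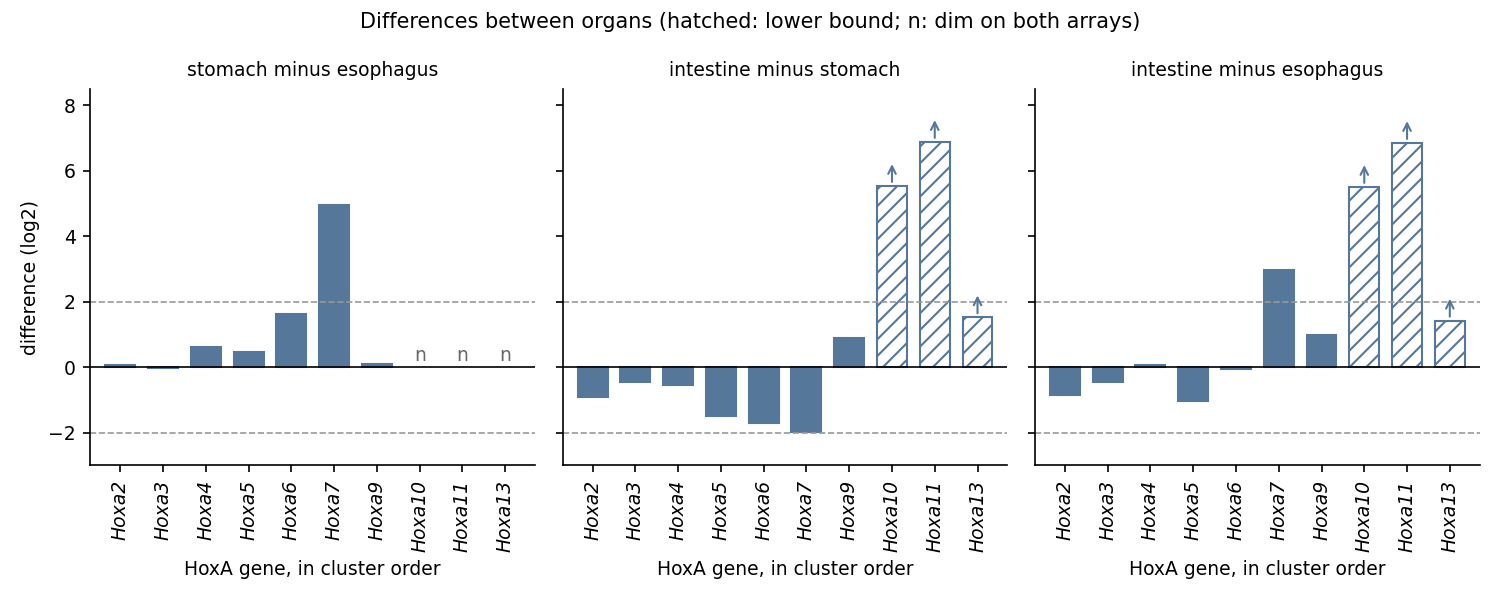
Difference between organs for each HoxA gene in cluster order, in log2 units. Filled bars were measured on both arrays, hatched bars with an arrow are lower bounds, n marks genes dim on both arrays, and dashed lines mark a 4-fold difference. Stomach minus esophagus peaks at Hoxa7 (4.96), and intestine minus stomach falls from Hoxa3 (−0.44) to Hoxa7 (−1.98) and is positive from Hoxa9 (0.89) onward.

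The genes from Hoxa9 to Hoxa13 stood higher in intestine than in either foregut organ. Hoxa9 was well above background everywhere, whereas Hoxa10, Hoxa11 and Hoxa13 were well above background in intestine only. Against stomach, the intestinal level was at least 46.3-fold higher for Hoxa10 and at least 118-fold higher for Hoxa11, and 1.86-fold higher for Hoxa9.

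Hoxa9, known from the thoracic and lumbar skeleton and from blood progenitors, gave 344 in esophagus, 314 in stomach and 1787 in intestine. Its level was −0.19, −0.09 and 0.80. Stomach minus esophagus was 0.10, within the spread between probes. Intestine minus stomach was 0.89 and ranged from 0.88 to 1.89 over the scalings, and intestine minus esophagus was 0.997 and ranged from 0.997 to 1.92. In the reported scaling the gene therefore lay close to 2-fold, and its place on either side of that line was set by the scaling. Spike-in scaling gave the upper ends of these ranges, just inside a 4-fold difference.

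Hoxa10, which patterns the lumbar region and the uterus, gave 829.9 in intestine, against 2.03 in esophagus and 1.72 in stomach, both dim. The intestinal level was −0.30. The bound was 5.50 log2 units against esophagus (at least 45.4-fold) and 5.53 against stomach. After normexp correction the bounds were 2.35 and 2.17.

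Hoxa11, which acts in the kidney, the limb and the reproductive tract, gave 2105 in intestine and dim signals of 2.59 in esophagus and 1.59 in stomach. The intestinal level was 1.04. The bound was 6.85 against esophagus (at least 115-fold) and 6.88 against stomach, or 3.70 and 3.61 after normexp correction.

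Hoxa13, the gene of the hindgut, cloaca and digits, was close to background. Its brighter probe gave 51.3 in intestine, at a level of −4.32, and was dim in esophagus (7.38) and stomach (1.38). The bound was 1.42 against esophagus (at least 2.67-fold) and 1.52 against stomach (at least 2.87-fold). The other probe was dim in every organ, with 6.49, 6.22 and 10.3, so the detection of Hoxa13 rests on 1 probe.

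Counted at 4-fold, 1 of the 7 HoxA genes that could be compared was higher in stomach than in esophagus (Hoxa7), against 0.684% of all genes, and 0 were lower, against 1.58%. For intestine minus esophagus 3 of 10 were higher (Hoxa7, Hoxa10 and Hoxa11), against 1.75%, and 0 lower, against 3.7%. For intestine minus stomach 2 of 10 were higher (Hoxa10 and Hoxa11), against 1.38%, and 0 lower, against 1.24%. Hoxa10, Hoxa11 and Hoxa13 entered the intestinal comparisons through intestine alone and could only be counted as higher there. With signal well above background required on both arrays, 1 of 7 was higher for intestine minus esophagus (175 of 13100 genes). For intestine minus stomach it was 0 of 7 (137 of 13273 genes). Counted at 2-fold, 2 of 7 were higher in stomach than in esophagus (4.14% of all genes) and 0 lower (5.71%). For intestine minus esophagus 4 of 10 were higher (8.4%) and 1 lower (11.5%), and for intestine minus stomach 3 of 10 were higher (4.77%) and 3 lower (7.18%). After spike-in scaling these 2-fold counts became 6 higher and 0 lower for intestine minus esophagus, and 4 higher and 0 lower for intestine minus stomach, since Hoxa5, Hoxa6 and Hoxa7 then lay within 2-fold. At 4-fold, spike-in scaling added Hoxa13 in both intestinal comparisons, which gave 4 and 3 higher. The medians of the HoxA genes in the 3 comparisons were 0.46, 0.54 and −0.49, and those of all genes 0.15, 0.13 and −0.02. After spike-in scaling the HoxA medians were 0.39, 1.46 and 0.51, so that the last changed sign, and those of all genes were 0.08, 1.03 and 0.95. These comparisons share arrays, so that a gene counted in intestine against both other organs rests on 1 intestinal value. The split of all genes depends on scaling. For intestine minus stomach 198 genes were higher and 178 lower, which became 230 and 131 after quantile normalization, 255 and 116 with median centring, and 684 and 61 after spike-in scaling. For intestine minus esophagus 253 were higher and 535 lower, which became 369 and 369, 453 and 297, and 1029 and 198. For stomach minus esophagus 94 were higher and 217 lower, which became 125 and 179 with median centring.

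A scaling that adds 1 amount to every gene, as the 75th percentile, median and spike-in scalings do for genes measured on both arrays, cancels when genes are set against each other within a pair of arrays. Quantile normalization does not cancel. Relative to the median of Hoxa2, Hoxa3, Hoxa4 and Hoxa5, the stomach minus esophagus difference was 4.70 for Hoxa7, 1.38 for Hoxa6 and −0.16 for Hoxa9. For intestine minus stomach it was −0.97 for Hoxa6, −1.26 for Hoxa7 and 1.62 for Hoxa9, and the bounds were 6.26 for Hoxa10, 7.60 for Hoxa11 and 2.24 for Hoxa13. After quantile normalization Hoxa6 stood at 1.61 for stomach minus esophagus and −0.76 for intestine minus stomach, and Hoxa7 at 4.67 and −1.22. The cluster thus differed unequally along its length in both steps. From Hoxa3 to Hoxa7 the intestine minus stomach difference fell from gene to gene (−0.44, −0.54, −1.48, −1.70 and −1.98) in the reported scaling. Median and spike-in scaling cannot change this order. It also held after quantile normalization, but not after normexp correction, where Hoxa3 stood at −0.68 and Hoxa4 at −0.37. Hoxa2 (−0.91) lay outside that order. Of the 27 differences that could be computed, 9 changed sign between the scalings. They belong to Hoxa2, Hoxa3, Hoxa4 and, for intestine minus esophagus, Hoxa6, and none was as large as 2-fold in the reported scaling.

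**Figure D3:**
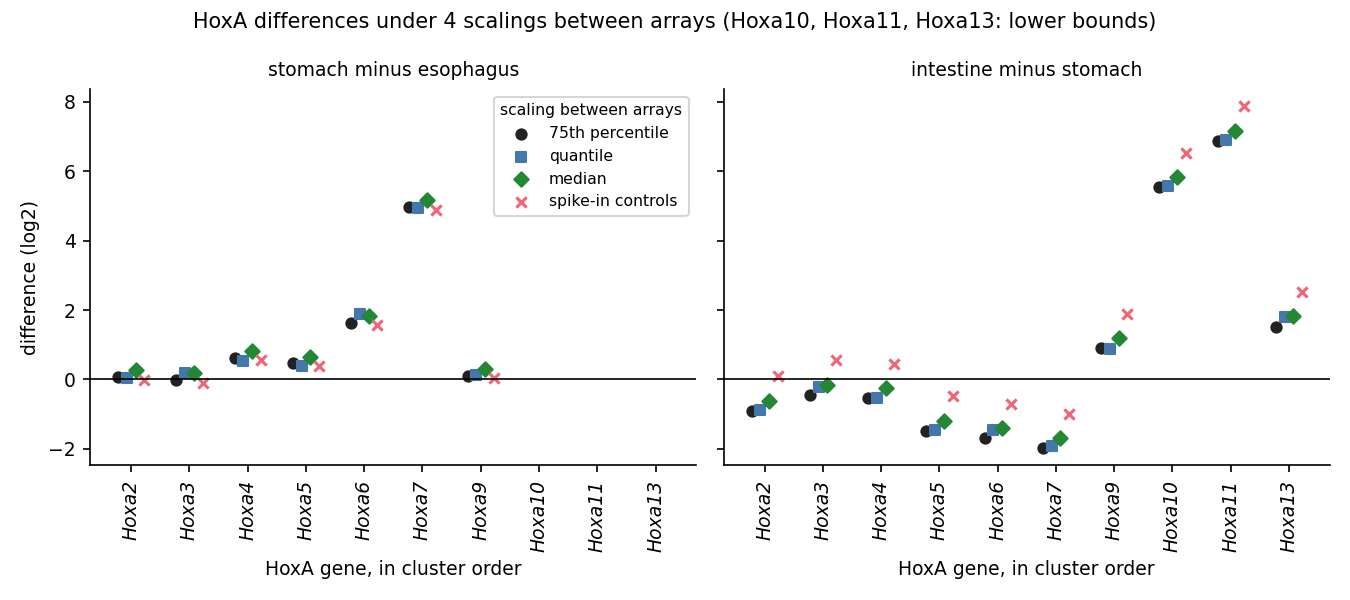
Stomach minus esophagus and intestine minus stomach differences of the HoxA genes (log2) under 4 scalings between arrays, with genes in cluster order. Values of Hoxa10, Hoxa11 and Hoxa13 are lower bounds and have no value in the left panel. The stomach step of Hoxa7 stays between 4.89 and 5.16, whereas spike-in scaling turns the intestine minus stomach difference of Hoxa2, Hoxa3 and Hoxa4 positive.

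Paralogous genes of the other clusters give the setting for these values. In group 5 the intestine minus stomach difference was −1.48 for Hoxa5, −0.45 for Hoxb5 and 0.62 for Hoxc5, and stomach minus esophagus was 0.46, 1.38 and 0.08. In group 6 the stomach minus esophagus difference was 1.64 for Hoxa6 and 2.70 for Hoxb6. In group 7 it was 4.96 for Hoxa7 and 4.16 for Hoxb7. Hoxa7 and Hoxa6 dropped by 1.98 and 1.70 from stomach to intestine, whereas Hoxb7 and Hoxb6 differed by −0.47 and −0.29, values that turned positive after spike-in scaling. The differences between paralogues could not be tested with 1 array per organ.

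In group 9 the paralogues went different ways. Hoxa9 gave 0.10 for stomach minus esophagus and 0.89 for intestine minus stomach, and Hoxd9 gave 0.10 and 1.82 by the probe used. The other Hoxd9 probe was dim in both foregut organs. Hoxb9 gave 1.80 and −2.63, and Hoxc9 was dim in stomach, with bounds of −2.03 and 7.02. In group 10 Hoxa10, Hoxc10 and Hoxd10 were dim in both esophagus and stomach, and their bounds for intestine minus stomach were 5.53, 4.001 and 5.52. In group 11 the bound was 6.88 for Hoxa11 and 3.54 for Hoxd11. In group 13 it was 1.52 for Hoxa13, 0.95 for Hoxb13 and 3.04 for Hoxd13, while Hoxc13 was dim in every organ. Among the group 8 genes, a group that HoxA lacks, Hoxb8 differed by −2.37 between intestine and stomach while Hoxc8 and Hoxd8 had bounds of 4.37 and 3.44.

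**Figure D4:**
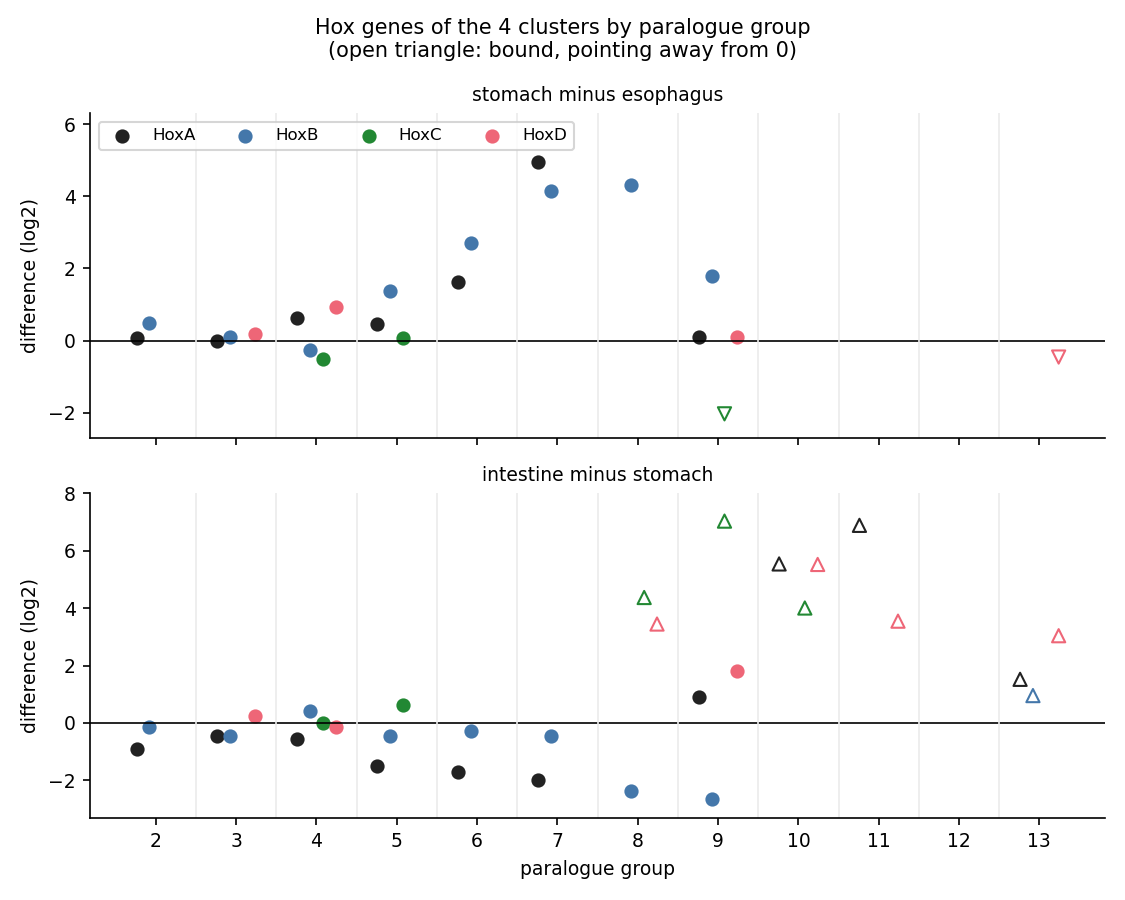
Differences between organs (log2) for Hox genes of the 4 clusters, by paralogue group, with stomach minus esophagus above and intestine minus stomach below. Filled points were measured on both arrays and open triangles are bounds. Groups 6 to 8 carry the large stomach minus esophagus values (Hoxa7 at 4.96, Hoxb7 at 4.16), and the bounds for intestine minus stomach lie in groups 8 to 11 and 13, from 0.95 (Hoxb13) to 7.02 (Hoxc9).

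For HoxA genes with a range of at least 1 log2 unit over the 3 organs, the 3 genes with the most similar profile were found among 12694 named genes by the Euclidean distance of the centred levels. Hoxa5, Hoxa6 and Hoxa7 passed this range, with 1.48, 1.70 and 4.96, and Hoxa9 fell just short with 0.997. The nearest to Hoxa7 were Hoxb8 (distance 0.74), Akr1c13 (0.89) and Grn (0.95). The nearest to Hoxa6 were Pdlim3 (0.15), Hal (0.17) and Klk1b8 (0.17), and the nearest to Hoxa5 were Pde4a (0.028), Lurap1l (0.039) and Phlda1 (0.041). Akr1c13 and Klk1b8 belong to families of near-identical genes, so their values are uncertain. With 3 arrays such distances only say that the values lie close.

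In the reported scaling 0 of 4 genes beside the cluster differed 4-fold in any comparison. Most genes on the arrays were not counted at 4-fold either. These were 13429 of 13740 for stomach minus esophagus, 13674 of 14462 for intestine minus esophagus and 14008 of 14384 for intestine minus stomach. Skap2 and Snx10, on the Hoxa2 side, differed by 0.66 and 0.51 for stomach minus esophagus and by −0.04 (0.96 after spike-in scaling) and 0.17 for intestine minus stomach. Evx1, the homeobox gene beyond Hoxa13, stood at −3.43 (esophagus), −4.60 (stomach) and −5.29 (intestine), and its intestine minus esophagus difference of −1.85 kept its sign under every scaling. Hibadh, the next gene of the list on that side, gave 1.09 for intestine minus stomach and 1.36 for intestine minus esophagus, and passed 4-fold in both after spike-in scaling (2.08 and 2.29). The 8 noncoding transcripts of the cluster that were listed had no probe matched by accession.

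Cofactors of Hox proteins were compared in the same way. In the reported scaling all 9 genes of the Meis, Pbx and Pknox families were within 2-fold between stomach and esophagus (median 0.35), and 8 of 9 between intestine and stomach (median −0.25). The exception was Meis1 at −1.15, whose other probe gave 0.63. Of all genes, 12384 of 13740 lay within 2-fold between stomach and esophagus and 12101 of 14384 between intestine and stomach. After spike-in scaling 5 of 9 lay within 2-fold between intestine and stomach and 4 were higher in intestine. Of 10 measured chromatin regulators of Hox genes, such as the Polycomb genes Ezh2, Eed and Suz12, all 10 lay within 2-fold in every comparison in the reported scaling, by the probe used. Between intestine and esophagus 11024 of all 14462 genes compared lay within 2-fold. After spike-in scaling 8 of 10 had an intestinal level 2-fold or more above esophagus, and 6 of 10 above stomach. Probes not used went past 2-fold for Suz12 (−1.63 for intestine minus esophagus and −1.11 for intestine minus stomach), for Bmi1 (−2.34 and −1.88) and, for intestine minus esophagus, for Phc1 (1.17). Among the upstream regulators Cdx2, the intestinal Caudal-type factor, was dim in esophagus, stood at −4.37 in stomach and at 1.85 in intestine. Its intestine minus stomach difference was 6.22. Aldh1a2, which makes retinoic acid, was higher in intestine than in stomach by 1.34, and Cyp26a1, which degrades it, gave −2.89 for stomach minus esophagus and −1.05 for intestine minus stomach. Cyp26b1, which also degrades it, went the other way, with 1.38 for intestine minus esophagus and 1.55 for intestine minus stomach. The retinoid receptor gene Rarb gave 0.30 for stomach minus esophagus, −1.11 for intestine minus esophagus and −1.41 for intestine minus stomach. Of the other Cdx genes, Cdx4 was dim in every organ and Cdx1 was well above background in stomach only, at −5.57.

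Several tissues near the gut also express distal HoxA genes, and their markers are given beside the intestinal values, in the order esophagus, stomach and intestine. The summed signal of 6 urogenital ridge genes was 1.74, 2.44 and 1.68 times the 75th percentile, with 5 of 6 well above background in each organ and Pax8 dim in all. After spike-in scaling these sums were 1.74, 2.32 and 3.20, so that the intestine moved from lowest to highest. Wt1, which is also in the mesothelium list, made up most of this sum in each organ. The sums of 5 tail bud and cloaca genes were 0.30, 0.31 and 0.24, or 0.30, 0.30 and 0.45 after spike-in scaling. Wnt3a and Cdx4 were dim in all organs. T was well above background in intestine only and had no usable bound. Its level there, averaged over repeat spots, was −6.70, near the lowest level well above background on that array (−6.97). The sums of 6 limb bud genes were 31.7, 78.3 and 8.54, of which Pitx1 alone made up 25.3, 74.9 and 5.11. Without Pitx1 they were 6.42, 3.39 and 3.43. Tbx5, which is also in the lung and trachea list, made up 5.30 of the 6.42 in esophagus. Tbx4 and Tbx5 were dim in intestine, whereas Hand2 stood higher there than in esophagus by 2.001. Those of 6 spinal cord genes were 6.32, 2.76 and 0.40, of which Nkx6-1, a gene also of foregut and pancreas, made up 5.76, 2.09 and 0.28. In intestine 5 of 6 were well above background, against 2 in esophagus and 3 in stomach, and Pax6, Nkx2-2 and Lhx3 were so in intestine only. Their signals there were 13.4, 20.8 and 16.7, near the lowest signal well above background on that array (8.17). Nkx2-2 had bounds of only 0.19 against esophagus and 0.22 against stomach, and Pax6 and Lhx3 had no usable bound. For these genes a difference between organs is therefore not shown. Sums that were highest in intestine under both scalings were those of liver (9.18, 3.03 and 56.4) and pancreas (0.11, 0.21 and 2.42). Sums for mesothelium were 4.26, 7.65 and 6.50, for enteric neural crest 11.9, 7.10 and 5.27, and for somite and muscle 3.54, 1.18 and 0.82. After spike-in scaling that of mesothelium was highest in intestine (4.26, 7.29 and 12.4), and those of enteric neural crest (11.9, 6.76 and 10.03) and of somite and muscle (3.54, 1.12 and 1.56) were lowest in stomach. The part of these tissues in the levels of Hoxa10, Hoxa11 and Hoxa13 was not tested.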

How the data were processed

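Each organ was measured on 1 array, and groups were taken from the sample titles. Per the file headers, the deposited scanner output holds spot intensity from Feature Extraction 10.5.1.1 (Agilent), with background subtraction and spatial detrending on each array. No scaling between arrays is recorded there. A deposited table of log2 values matched these signals minus 1 constant for at least 99.8% of probes and served as an alternative. Its medians were −2.97 (esophagus), −3.17 (stomach) and −3.47 (intestine). The software's flags, deposited by the authors under other, marked outlier spots, which were left out, and spots well above background. Of 45018 spots 43379 were not controls, and none was saturated. All arrays share 1 slide and 1 scan.

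Signals were divided by the 75th percentile of the non-control spots on their array, put on a log2 scale and averaged per probe. Probe accessions were matched to RefSeq (GRCm38.p6), which named 24342 probes. Each gene was represented by its probe with the highest mean. Genes entered a comparison when well above background on at least 1 array. Differences of 4-fold were counted. Python 3.11.15, pandas 2.3.3 and limma 3.58.1 (normexp, offset 50, on median spot and background intensities, since mean spot signals are not in the files used) were used. Genes named are the members, the genes of the fixed lists and the 3 nearest profiles of each member with a range of at least 1 log2 unit. Alternatives were normexp, quantile, median and spike-in scaling, the deposited table, the filter on dim probes, the mean of probes, and 2-fold. The members and lists were chosen with earlier results of these data known.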

Additional observations from a re-analysis of the deposited data

How the results depend on the processing

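Leaving the filter on dim probes out raised the count of HoxA genes at least 4-fold apart between stomach and esophagus from 1 to 2, by adding a dim Hoxa13 value, and raised that between intestine and stomach from 2 to 3. Spike-in scaling raised the count to 4 for intestine minus esophagus and to 3 for intestine minus stomach. Requiring signal well above background on both arrays lowered the count from 3 to 1 for intestine minus esophagus and from 2 to 0 for intestine minus stomach, because Hoxa10 and Hoxa11 were dim in the foregut organs. Counting at 2-fold gave 2, 5 and 6 for stomach minus esophagus, intestine minus esophagus and intestine minus stomach. No called difference changed sign under any alternative run. Median and spike-in scaling shift all genes of a comparison together. Of the differences of single HoxA genes, spike-in scaling moved 20 of 27 by more than the spread between probes. Median centring moved 10 of 27, leaving out the filter on dim probes 5 of 27 and quantile normalization 2 of 27. Normexp moved 7 of 25 and gave no usable value for Hoxa13 in either comparison with intestine. The deposited table moved none of 27. No paired analysis was possible because each organ has 1 array. What limits the dim genes is signal over background: the lowest such signal was 7.03 (esophagus), 5.85 (stomach) and 8.17 (intestine).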
